A study of Mus musculus with 6 samples.

Results

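The genes described here encode actin, the proteins that assemble, cut, cap, bundle and move actin filaments, and the proteins that anchor filaments at focal adhesions and at the plasma membrane. The list holds 59 genes, placed in 7 classes by textbook function. Each gene was read by 1 probe set, chosen by its mean signal over the 6 arrays, the measured value behind the choice of probe set. The gene list itself was drawn up with earlier results of these data known. Of the 59 genes, 56 had a probe set annotated to a single gene, and 55 passed the filter on dim probe sets, among 10208 genes tested in all. Diap1 is listed as Diaph1 in the annotation. The filter sits at a signal of 12.9, on log2 scale 4.86. Evl lay just inside it, at 12.7, 14.1 and 12.0 in the miR-9/9* arrays, against 20.1, 12.7 and 11.6 in the empty vector arrays. Cnn3 lay outside it, with at most 13.2 on any array. Arpc1b, Arpc3 and Actr2 had no probe set of their own and were not tested.

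Messenger RNA was measured on 6 one-colour Affymetrix arrays from 32D, an interleukin-3-dependent mouse myeloid cell line. One arm overexpressed both strands of the miR-9 precursor, miR-9 and miR-9* (3 samples, construct label C2-MiR-9), and the other carried an empty vector (3 samples, construct label A1-EV). Every culture of both arms grew in RPMI with 10% fetal calf serum, antibiotics and murine interleukin-3 at 10 ng/ml. The replicates are called independent, but the labels do not say whether an arm is 1 clone, nor how its cultures were separated, so p-values measure the spread between these samples. The values are MAS5 signals, scaled on each array to a trimmed mean of 100, and median signals ran from 12.0 to 15.2. Differences are in log2(signal + 16), miR-9/9* minus empty vector, which understates the change of dim genes. Signals of different probe sets are not comparable in level. Precision is limited by having 3 arrays in each arm.

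Actin monomers, held ready by profilin and thymosins, polymerise into filaments. WASP and WAVE proteins switch on the Arp2/3 complex, which branches filaments, and formins and Ena/VASP proteins extend them. Cofilin, gelsolin and capping protein cut and cap filaments, plastin and alpha-actinin bundle them, and myosins pull on them. At focal adhesions, talin and vinculin connect integrins to actin, and LIM-domain proteins such as zyxin bind where tension is carried. In blood cells the same machinery drives migration, phagocytosis and cell division. Both overexpressed strands come from 1 microRNA precursor, and each picks its target messages mainly through its seed. They are printed as RefSeq lists them (GRCm38.p6), 5′ to 3′, with the seed, bases 2 to 8, in capitals. Their overexpression is the difference between the arms that the labels give. The 3 mouse miR-9 genes give the same mature sequence for each strand, and the seeds of the 2 strands differ.
mmu-miR-9-5p (miR-9): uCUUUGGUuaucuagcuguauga
mmu-miR-9-3p (miR-9*): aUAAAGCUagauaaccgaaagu

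The main fit, without a block, called 0 of the 55 actin and adhesion genes. An alternative fit compared the arms within replicate numbers, a pairing read from these same arrays. With the replicate number as a block, 10 were called lower in miR-9/9* cells: Tmsb10, Myh9, Myo1c, Gsn, Lcp1, Wasf2, Vcl, Zyx, Lpp and Pdlim5. Their differences ran from -0.36 for Tmsb10 to -0.77 for Gsn. None of the 55 was called higher. The actins themselves, cofilin, profilin, the tropomyosins and the formin gene were not called. The 10 calls come from limma with the replicate number as a block and Benjamini-Hochberg adjustment over all genes tested, at a threshold of 0.05. They are 18.2% of the members, beside 1.45% of all genes called lower and 1.51% called higher in the same fit. The members were brighter than all genes tested, with array medians of 9.54 to 9.98 against 7.34 to 7.45 in log2(signal + 16). With the block and the filter at the upper quartile, 17.3% of members and 2.12% of all genes were called lower. Without the block limma called 0 members in either direction (all genes: 0.0392% lower, 0.0196% higher), and 9 were lower and 0 higher at an unadjusted p under 0.05 (2.35% and 2.25% of all genes). With the block 16 were lower and 2 higher at that unadjusted level (8.29% and 8.71% of all genes). The list was drawn up with earlier results of these data known, so these shares are descriptions. All 10 blocked calls were lost without limma's variance trend (adjusted p from 0.0519 for Gsn to 0.163 for Vcl), and those of Gsn, Myo1c and Myh9 alone stood when dim probe sets were kept in. Leaving out both arrays numbered 1 ended the calls of Lcp1 (adjusted p = 0.0601), Tmsb10 (0.0676), Wasf2 (0.104) and Vcl (0.138), still in limma with the block.

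Over the 55 members the median difference was -0.08, beside 0.01 over all genes tested, and it was -0.01, -0.06 and -0.17 within replicate numbers 1, 2 and 3. Lower signal in the miR-9/9* array of all 3 numbers was seen for 21 members, or 38.2%, against 18.0% of all genes. Higher signal in all 3 was seen for 6 members, or 10.9%, against 21.0% of all genes. The 2 arms did not overlap for 9 members that were lower, or 16.4%, against 4.74% of all genes, and for 1 that was higher, Was (5.07% of all genes).

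**Figure D1:**
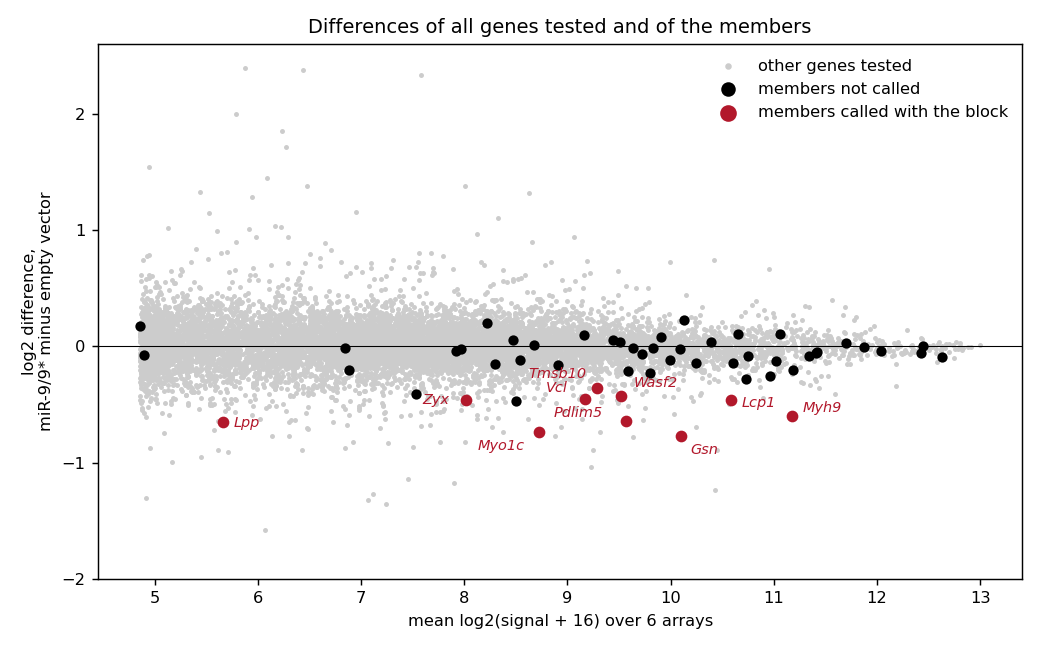
Difference between the arms (log2, miR-9/9* minus empty vector) against mean log2(signal + 16) over 6 arrays for 10208 genes. Grey points are other genes, black points are the members that were not called and red points are the 10 called with the replicate block, all of which lie between -0.36 and -0.77.

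Among the actins and monomer-binding proteins, 1 of 7 members was called lower with the block and 0 without it. The shares of all genes were 1.45% and 0.0392%. Actb, the gene of cytoplasmic beta-actin, had signals of 5755, 5106 and 5793 in the miR-9/9* arrays numbered 1, 2 and 3, against 4948, 5085 and 6791 in the empty vector arrays. The arms overlapped, and the highest array was empty vector number 3. The difference was -0.0019 (95% confidence interval -0.25 to 0.25 with the block, adjusted p = 0.995). Affymetrix control probe sets along the same message gave 6750, 5960 and 7050 at its 3′ end in miR-9/9* cells, against 6023, 5767 and 8315 in empty vector cells. Actg1, the gamma-actin gene, stood at 5418, 4879 and 5919.6 in miR-9/9* cells, against 5149, 5189.6 and 6555 in empty vector cells, a difference of -0.05 (block interval -0.27 to 0.16). The 2 actin messages are close relatives, so their probe sets may share signal. Tmsb10, which encodes the monomer-holding peptide thymosin beta-10, had 569, 604 and 448 in miR-9/9* cells, against 720.0, 795 and 584 in empty vector cells. It was lower within each number by 0.33 to 0.39, although its arms overlapped, because number 3 was low in both. Its difference was -0.36 (block SE 0.0632, adjusted p = 0.0176; without the block SE 0.155, adjusted p = 0.999). Its relative Tmsb4x was not called (-0.09, block adjusted p = 0.755). Cap1, a cyclase-associated protein that recycles monomers, was at 1113, 1003 and 823 in miR-9/9* cells, against 1033, 941 and 805 in empty vector cells. That is slightly higher in all 3 numbers, at a difference of 0.08 that did not pass (block adjusted p = 0.621). Pfn1 and Twf2 stood at -0.08 and -0.07 and did not pass.

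**Figure D2:**
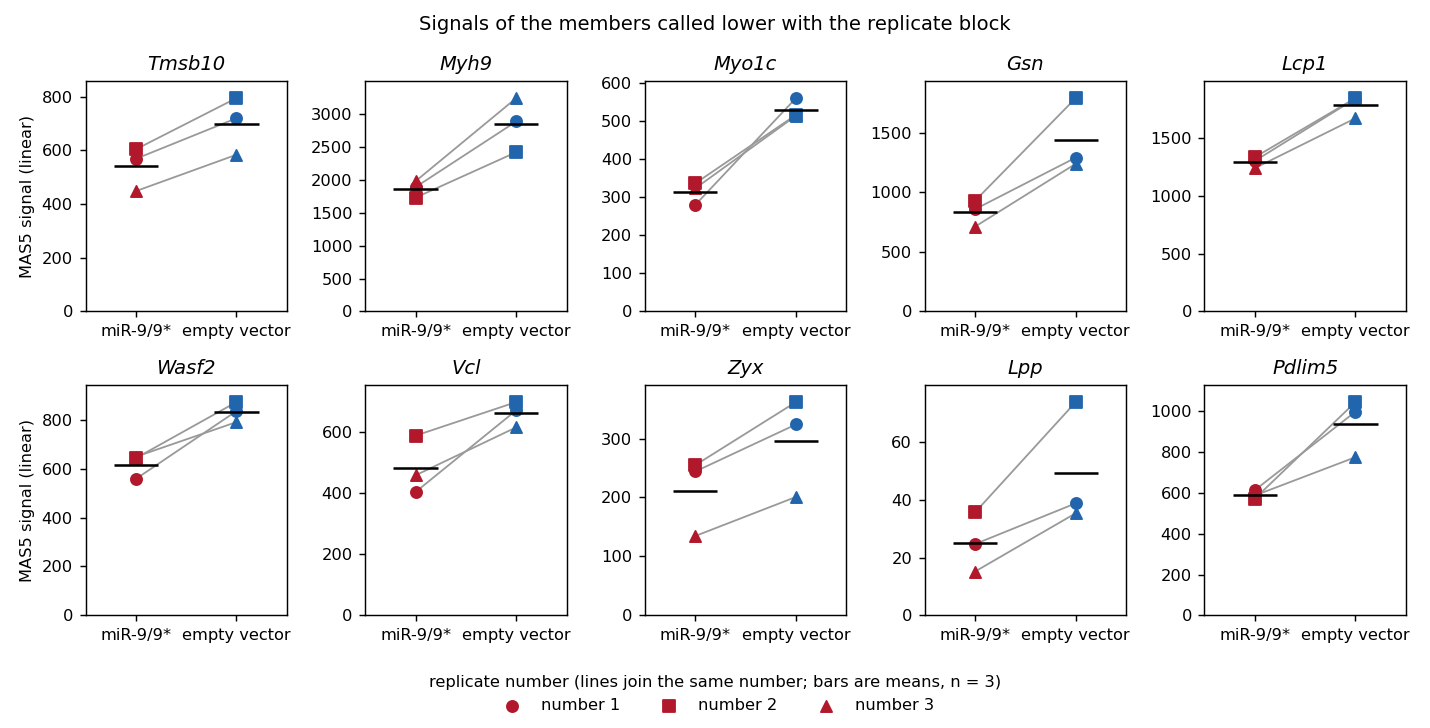
MAS5 signal (linear scale from 0) of the 10 called members in each array, miR-9/9* at left in red and empty vector at right in blue. Symbols give the replicate number, grey lines join arrays of the same number and black bars are means of 3; every line runs lower on the miR-9/9* side, for Myh9 with means of 1864 and 2846.

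Of 8 myosin genes tested, Myh9 and Myo1c were called lower with the block and 0 without it, beside 1.45% and 0.0392% of all genes. Myh9 encodes the heavy chain of non-muscle myosin IIA, the motor that contracts the cortex and the cleavage furrow. Its signal was 1887, 1727 and 1976 in miR-9/9* cells, against 2883, 2417 and 3238 in empty vector cells, so that each miR-9/9* array lay below each empty vector array. The difference was -0.60 (block SE 0.0790, adjusted p = 0.00653; without the block adjusted p = 0.371). Myo1c, a single-headed motor that ties membranes to actin, was at 279.7, 336 and 323 in miR-9/9* cells, against 559.9, 516 and 514 in empty vector cells. The arms were again fully apart, and the difference was -0.73 (block SE 0.0841, adjusted p = 0.00322). Without the block Myo1c had the lowest adjusted p of the 55 members, 0.105. The other class I myosins were not called. Myo1g was higher in all 3 numbers, at 304 ± 30.3 in miR-9/9* cells and 265 ± 56.5 in empty vector cells (SD, n = 3 each), but was not called (0.20, block adjusted p = 0.261). Myo1f (-0.21), Myo1e (0.17) and the class IX myosin Myo9b (-0.02) did not pass. The regulatory light chain Myl12a stood at -0.13 and did not pass. The only probe set annotated to Myl6 alone, an essential light chain, had pairs of both signs. It read 132, 86.8 and 82.0 in miR-9/9* cells, against 85.5, 131 and 87.9 in empty vector cells. Probe sets annotated to Myl6 together with Gm8894 and Gm5526 stand for no single gene. They stood at -0.03, lower in all 3 numbers, and at -0.05, with pairs of both signs.

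In the severing, disassembly and capping class 1 of 10 members was called lower with the block and 0 without it. The shares of all genes were 1.45% and 0.0392%. Gsn encodes gelsolin, which cuts filaments and caps their fast-growing ends when calcium rises. Gsn read 858, 929 and 712 in miR-9/9* cells, against 1291, 1791 and 1239.7 in empty vector cells. The highest miR-9/9* array stayed below the lowest empty vector array. The difference was -0.77 (block SE 0.0805, adjusted p = 0.00239; without the block adjusted p = 0.356). Capza1, the alpha subunit of capping protein, had 2281, 1813 and 2419 in miR-9/9* cells, against 2396, 2259 and 2818 in empty vector cells. It was lower in all 3 numbers but did not pass (-0.20, block adjusted p = 0.245), and its partner subunit Capzb stood at 0.10. The gelsolin relative Capg, which caps without cutting, stood at -0.02 (block interval -0.19 to 0.16). The disassembly factors Cfl1 (-0.04), Dstn (-0.12) and Wdr1 (0.05) and the 3 coronins (-0.12 to -0.04) were not called.

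Of 10 crosslinking and filament-binding genes tested, Lcp1 was called lower with the block and 0 without it, beside 1.45% and 0.0392% of all genes. Lcp1 encodes L-plastin, the filament bundler of white blood cells. Its signals were 1299, 1331 and 1237 in miR-9/9* cells, against 1838, 1842 and 1668 in empty vector cells. The arms did not overlap, and the difference was -0.46 (block SE 0.0679, adjusted p = 0.00905; without the block adjusted p = 0.364). Cnn2, a calponin that stabilises filaments, was at 347, 312 and 229.6 in miR-9/9* cells, against 464, 576 and 256 in empty vector cells. It was lower in all 3 numbers by very unequal amounts, -0.40, -0.85 and -0.15, and did not pass (-0.47, block adjusted p = 0.0727), but it was called when both number 3 arrays were left out (-0.63). The alpha-actinin gene Actn1 was higher in all 3 numbers, at 1195 ± 43.6 in miR-9/9* cells and 1022 ± 138 in empty vector cells, and did not pass (0.23, block adjusted p = 0.156). Its further probe sets stood at -0.16 and -0.0047. Actn4, the filamin gene Flna and the tropomyosin genes Tpm1 and Tpm3 lay between 0.01 and 0.05, while Tpm4 stood at -0.16, lower in all 3 numbers and not called (block adjusted p = 0.356). The scaffold Iqgap1 was lower in every miR-9/9* array than in any empty vector array by a small amount (-0.15, block adjusted p = 0.306). On the probe set used, Tagln2 stood at -0.25, which came from number 3 alone. That pair differed by -0.80, against 0.03 and 0.01 in numbers 1 and 2. A further probe set stood at -0.07 and was higher in number 3, at 1477 in miR-9/9* cells against 1346 in empty vector cells.

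Among 9 tested genes for nucleation and elongation, Wasf2 was called lower with the block and 0 without it. The shares of all genes were 1.45% and 0.0392%. Wasf2 encodes WAVE2, which turns on the Arp2/3 complex below Rac. It read 558, 643 and 649 in miR-9/9* cells, against 835, 872 and 791 in empty vector cells, with no overlap. The difference was -0.43 (block SE 0.0740, adjusted p = 0.0175; without the block adjusted p = 0.492). Was, the related activator found in blood cells that acts below Cdc42, was at 553, 571 and 608 in miR-9/9* cells, against 539, 523 and 552 in empty vector cells. It was the only member fully higher in miR-9/9* cells, by a difference of 0.10 that did not pass (block adjusted p = 0.502). Arpc5, a subunit of the Arp2/3 complex, had 1461, 1343 and 1791 in miR-9/9* cells, against 1779.7, 1776 and 2021 in empty vector cells. It was lower in all 3 numbers and did not pass (-0.28, block adjusted p = 0.0860), but it too was called without the number 3 arrays (-0.34). The subunits Arpc2 (-0.0040) and Actr3 (-0.06) were not called. A probe set annotated to both Arpc1b and a gene named Gm5637 stands for no single gene. It had 3195, 2805 and 3602 in miR-9/9* cells, against 3268, 3105 and 4198 in empty vector cells, a difference of -0.13. A second such probe set stood at -0.05, with pairs of both signs. The formin gene Diap1 (0.10) and the elongation factors Vasp (-0.08), Enah (0.04) and Evl (-0.08) did not pass.

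The focal adhesion class held 4 of the 10 called genes, Vcl, Zyx, Lpp and Pdlim5, among 8 tested, and its median difference was -0.43. In the fit with the block 1.45% of all genes were called lower and 1.51% higher. Without the block 0 of the 8 were called. All 8 had a negative difference, as did 4855 of all 10208 genes tested. Lower signal in all 3 replicate numbers was seen for 7 of the 8, against 18.0% of all genes. The list was drawn up with earlier results of these data known, so these counts are descriptions. Vcl encodes vinculin, which couples talin to actin. Its signals were 403, 587 and 458 in miR-9/9* cells, against 670.0, 697 and 614 in empty vector cells. The arms did not overlap, but the pairs differed unequally, by -0.71, -0.24 and -0.41. Its difference was -0.45 (block SE 0.0900, adjusted p = 0.0313; without the block adjusted p = 0.805). Zyx encodes zyxin, a LIM protein that brings VASP to adhesions. Zyx read 244, 255 and 135 in miR-9/9* cells, against 324, 362 and 201 in empty vector cells. Number 3 was the lowest array of both arms, so the arms overlapped, whereas the pairs were lower by 0.39 to 0.53. Its SE was 0.270 without the block and 0.0736 with it, for a difference of -0.46 (adjusted p = 0.999 without the block and 0.0127 with it). Lpp, a zyxin relative, was dim, at 24.7, 35.6 and 15.2 in miR-9/9* cells, against 38.8, 73.9 and 35.4 in empty vector cells. It was lower in all 3 numbers (-0.65, block adjusted p = 0.0392; without the block 0.999). The size depended on the scale, with -0.94 at a pseudocount of 1, -0.34 at a pseudocount of 64, and -0.25 with all probe sets averaged (not called). Leaving out the arrays numbered 2 or 3 ended that call (adjusted p = 0.131 and 0.0733 in limma with the block). Pdlim5 encodes a PDZ and LIM protein that binds alpha-actinin. It was at 613, 571 and 587 in miR-9/9* cells, against 997, 1044 and 774 in empty vector cells. These arms were apart, and the difference was -0.64 (block SE 0.0892, adjusted p = 0.00757; without the block adjusted p = 0.269).

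The other focal adhesion genes were not called. Tln1, the talin gene, was lower within each number by 0.18 to 0.27, at 820 ± 190 in miR-9/9* cells and 970 ± 251 in empty vector cells (-0.23, block adjusted p = 0.103). Pdlim7 stood at -0.41 (block adjusted p = 0.114) and Pdlim1 at -0.15, both lower in 3 of 3 numbers. The paxillin gene Pxn had a difference of -0.01, with pairs of both signs. Among the membrane linkers, which pin actin to the plasma membrane, 0 of 3 passed. Ezr, the ezrin gene, was at 705, 738 and 653 in miR-9/9* cells, against 745, 952 and 746 in empty vector cells. The arms did not overlap, but the difference of -0.21 did not pass (block adjusted p = 0.193). Msn, the moesin gene, was at 1546, 1469 and 1392 in miR-9/9* cells, against 1722, 1644 and 1502 in empty vector cells, lower in all 3 numbers (-0.14, block adjusted p = 0.339). Rdx stood at -0.02.

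**Figure D3:**
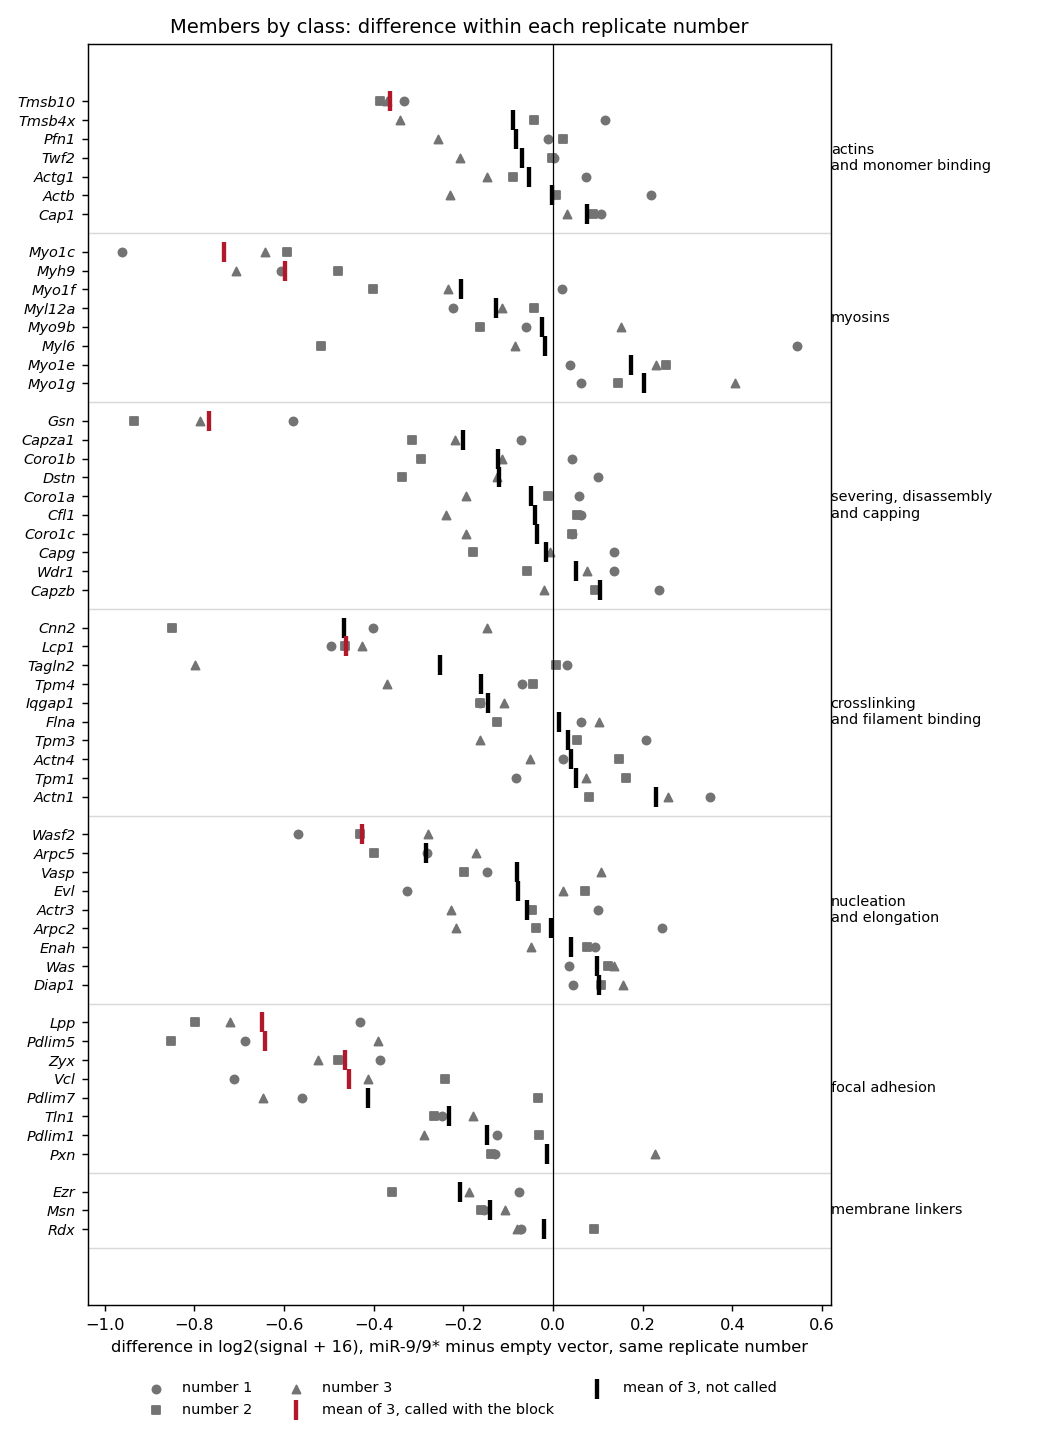
Difference in log2(signal + 16) between the miR-9/9* and the empty vector array of the same replicate number (grey symbols) and their mean (vertical tick, red where called with the block) for the 55 members by class. In the focal adhesion class 7 of 8 genes have all 3 symbols left of 0, whereas most genes of the other classes scatter around 0. Of all genes tested, 18.0% were lower in all 3 numbers.

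The array carries further probe sets for most members, which read other stretches of the same messages in the same RNA. They were not used in the fit and are given as a description. Genes were sorted by calls made in that same RNA, so counts for called and other genes give no independent support. For 9 of the 10 called genes there were 26 further probe sets above the filter. All 26 had a negative difference, with a median of -0.48, and 20 were lower in all 3 numbers. For the 45 other tested members there were 51 further probe sets, of which 33 had a negative difference, 8 were lower and 4 higher in all 3 numbers, and the median was -0.06. Myh9 was lower on each of its 5 probe sets, by -0.26 to -0.95. Gsn was lower on each of 5, by -0.35 to -0.80, and Pdlim5 on each of 7, by -0.18 to -0.91. Those of Myo1c ran from -0.38 to -0.89 over 4. Lcp1 read -0.46 on both of its sets and Wasf2 -0.43 and -0.48. The second set of Zyx stood at -0.48 with pairs of both signs, and Vcl had no second set above the filter. Further sets lower in all 3 numbers were 3 of 4 for Myh9 and 4 of 6 for Pdlim5. They were 2 of 3 for Tmsb10 and 2 of 3 for Lpp. Averaging all probe sets of a gene kept the blocked calls of Myh9, Myo1c, Gsn, Lcp1 and Pdlim5 and ended those of Tmsb10, Wasf2, Vcl, Zyx and Lpp.

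**Figure D4:**
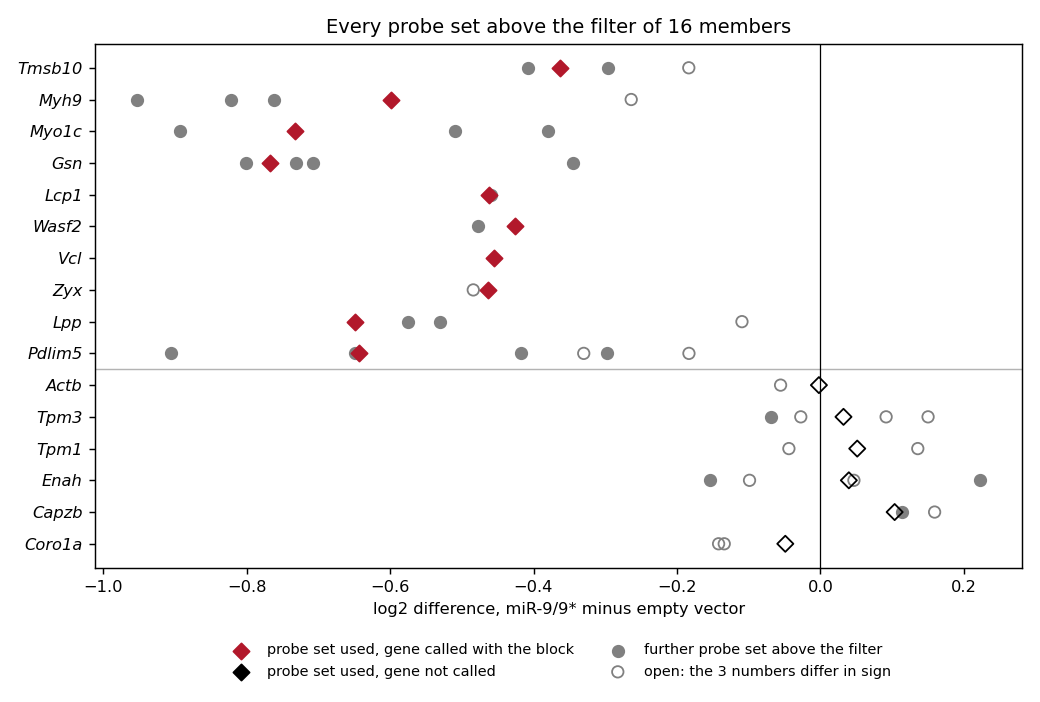
Difference between the arms (log2, miR-9/9* minus empty vector) for every probe set above the filter of the 10 called members (above the line) and of 6 members that were not called (below it), Actb, Tpm3, Tpm1, Enah, Capzb and Coro1a, picked for display after their values were seen. Diamonds are the probe sets used, circles further ones, and open symbols have pairs of both signs; each symbol above the line lies left of 0.

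Same-numbered arrays of the 2 arms shared part of their spread. Across the 55 members, deviations from the arm mean correlated at 0.45, 0.66 and 0.74 between same-numbered arrays of the 2 arms (Pearson correlation over genes that share the arrays, a description). Both number 3 arrays lay above the other 4 for 8 of the 55 members, against 16.4% of all genes. They lay below the other 4 for 14 members, or 25.5%, close to the 21.2% of all genes. Flna showed this plainly, at 292 in miR-9/9* number 3 and 271 in empty vector number 3, against 442 to 484 on the other arrays. Zyx, Wdr1 and Pdlim7 were also low in both number 3 arrays. Flna and Wdr1 nonetheless had arm differences of 0.01 and 0.05, while Zyx fell within each number.

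Many actin genes are textbook targets of serum response factor, which binds the CArG box, and which is switched on by MRTF cofactors when the pool of free actin monomers shrinks. RefSeq promoters (GRCm38.p6, 250 bases before to 50 after the start site) were matched for 54 of the 59 members, all but Actb, Twf2, Coro1b, Diap1 and Pxn, and a CArG box was searched in them; the motif reads the same on both strands. A box lay in the window of 5 members, or 9.26%, against 1.81% of all genes with a promoter listed (1.47% of those tested). It lay in 1 of the 10 called genes, Vcl, and in 4 of 40 other tested members, Actg1, Myl6, Myo1e and Cnn2. The shares were thus 10.0% and 10.0%. A match is a description and not a bound site. The promoters of Vcl, Cnn2 and Actg1 are printed in gene orientation, with the box in capitals, because they set a called gene beside a pair that hold a box and were not called.
Vcl promoter, chr14:20929148-20929447, + strand: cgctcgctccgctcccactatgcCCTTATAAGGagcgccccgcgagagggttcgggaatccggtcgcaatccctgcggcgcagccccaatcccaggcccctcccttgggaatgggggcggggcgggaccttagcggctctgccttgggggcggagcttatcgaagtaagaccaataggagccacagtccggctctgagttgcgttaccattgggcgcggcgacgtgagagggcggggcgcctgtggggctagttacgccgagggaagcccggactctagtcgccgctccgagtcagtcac
Cnn2 promoter, chr10:79988350-79988649, + strand: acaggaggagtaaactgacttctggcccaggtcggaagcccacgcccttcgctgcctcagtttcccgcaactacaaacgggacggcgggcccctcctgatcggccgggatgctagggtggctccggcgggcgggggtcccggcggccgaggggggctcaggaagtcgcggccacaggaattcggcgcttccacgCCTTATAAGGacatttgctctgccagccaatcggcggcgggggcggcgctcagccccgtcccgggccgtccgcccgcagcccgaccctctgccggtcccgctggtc
Actg1 promoter, chr11:120348446-120348745, - strand: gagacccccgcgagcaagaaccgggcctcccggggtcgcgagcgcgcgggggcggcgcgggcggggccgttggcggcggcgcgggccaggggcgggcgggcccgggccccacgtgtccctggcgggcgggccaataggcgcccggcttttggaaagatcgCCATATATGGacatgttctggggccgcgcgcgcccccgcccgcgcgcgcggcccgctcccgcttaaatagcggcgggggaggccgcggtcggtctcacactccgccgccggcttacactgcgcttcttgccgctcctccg
The box of Vcl and that of Cnn2 have the same letters, CCTTATAAGG. The last base of the box lay 218 bases before the start site in Vcl, 47 in Cnn2 and 81 in Actg1.

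Beyond the members, 109 further genes of actin regulation were listed, and 88 were tested. With the block 2 were called higher and 0 lower, beside 1.51% and 1.45% of all genes, and without it 0 either way. In that unblocked fit 3 were higher and 0 lower at an unadjusted p under 0.05, against 2.25% and 2.35% of all genes. Mrtfb, an MRTF cofactor of serum response factor, rose to 582, 701 and 398 in miR-9/9* cells, against 294, 407 and 298 in empty vector cells. It was higher in 3 of 3 numbers (0.70, block SE 0.0998, adjusted p = 0.00777; without the block adjusted p = 0.733). Of its further probe sets, one stood at 0.22 and was higher in all 3 numbers, and another stood at 0.66 and was lower in number 3. Srf itself was at 349.5 ± 8.81 in miR-9/9* cells and 316 ± 24.6 in empty vector cells (0.14, block adjusted p = 0.388), and Mrtfa stood at -0.11. Plek, which encodes pleckstrin, a platelet and white-cell protein that reorganises actin, rose to 1908, 1498 and 1894 in miR-9/9* cells, against 1179, 651 and 1465 in empty vector cells (0.75, block adjusted p = 0.0175; without the block 0.958), and its 2 further probe sets were also higher in all 3 numbers. Of 11 kinases and phosphatases of actin, 17 adhesion kinases and adaptors and 18 WAVE and WASP partners tested, 0 passed with the block in limma. At an unadjusted p under 0.05 these classes held 1 higher and 1 lower, 1 and 0, and 3 and 1. All genes stood at 8.71% higher and 8.29% lower at that level with the block. The medians of these classes lay between -0.06 and 0.06, beside -0.43 for the focal adhesion members and 0.01 over all genes tested. Members and lists were chosen with earlier results of these data known, so these medians are descriptions only.

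Markers of several blood lineages moved with the arms in the same fit. With the block 4 of 8 erythroid and 4 of 7 megakaryocyte markers tested were higher and 3 of 7 late neutrophil markers lower, beside 1.51% of all genes higher and 1.45% lower. Of 3 eosinophil markers 2 were higher, and of 6 monocyte markers 1 was higher. Of 6 mast cell markers 0 passed in limma, with 2 higher and 2 lower at an unadjusted p under 0.05 (all genes: 8.71% and 8.29%). Without the block the monocyte marker F13a1 was the only one of these lineage markers called. The summed signal of the 11 erythroid markers with a probe set was 4518, 4429 and 4509 in miR-9/9* cells, against 3594, 3123 and 4320.0 in empty vector cells. That of the 10 megakaryocyte markers was 2582, 3766 and 2178 in miR-9/9* cells, against 2130.2, 3115 and 1942 in empty vector cells. Both sums were higher in all 3 numbers, as was that of the 5 eosinophil markers, at 3617, 277 and 1051 in miR-9/9* cells, against 1376, 255 and 386 in empty vector cells. That of the 11 late neutrophil markers was lower in all 3 numbers, at 2787, 366 and 1059.9 in miR-9/9* cells, against 4023, 1214 and 1289 in empty vector cells. Monocyte sums (1314 to 1619 in miR-9/9* cells and 1140.4 to 1395 in empty vector cells) and mast cell sums (739 to 951 in miR-9/9* cells and 763 to 1112 in empty vector cells) had pairs of both signs. The part of these lineage markers in the differences was not tested. In such bulk RNA, fewer cells of a type and less RNA per cell cannot be told apart. Of 12 myeloid progenitor markers listed for the line 10 passed the filter, Ptprc, Myb and Csf2rb among them, and Cd34 and Elane did not. The sum of the 12 ran from 6573 to 10730 in miR-9/9* cells and from 7263 to 9267 in empty vector cells. The differences of the 10 ran from -0.69 to 1.38, and 1 of them, Csf2rb, was called lower with the block (-0.35, adjusted p = 0.0362). Of 12 fibroblast and smooth muscle markers 10 lay below the filter, Col1a1, Col3a1, Dcn and Tagln among them, and their summed signal ran from 109.8 to 135 in miR-9/9* cells and from 129.8 to 156 in empty vector cells. Of 6 endothelial markers, 5 lay below it. The ratio of 3′ to 5′ signal of the beta-actin controls, a sign of RNA integrity, was 1.20 to 1.35 in miR-9/9* cells and 1.19 to 1.29 in empty vector cells.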

How the data were processed

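The 6 arrays were grouped by sample title, 3 of miR-9/9* and 3 of empty vector. The deposited intensity values are MAS5 signals on a linear scale, made by the authors with MAS5, per the submitters' processing notes; the version, scanner and detection calls are not given in the labels or headers read here. Per the labels' protocols, cRNA was made from 6 ug of Trizol-extracted RNA. Probe sets were named from a 2016 platform annotation (34945 with 1 symbol, 932 with several and 9160 with none), and 34741 matched the RefSeq gene table of GRCm38.p6 by Entrez ID. The 64 Affymetrix controls were left out of the tests. Signals became log2(signal + 16). Each gene was read by its brightest probe set, and genes below the median of all probe sets were left out, leaving 10208. The arms were compared over all of these with limma 3.58.1 in R 4.3.3 (variance trend, two-sided, Benjamini-Hochberg, 4 residual degrees of freedom), and again with the replicate number as a block (2). The labels give only the numbers: across genes, deviations from the arm means of same-numbered arrays correlated at 0.491, 0.616 and 0.680, all above 0.1, so the pairing is read from the data. The script was tested on simulated data. Values in every array are given for called members, for the 2 members of each class with the largest difference of 1 sign in all 3 numbers, and for Actb and Actg1. Actn1, Was, Flna, Srf, Mrtfa and others named beside them were picked after their values were seen. Another class of actin regulators enters the total of listed genes and is not reported here. The members and lists were chosen with earlier results of these data known.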

Additional observations from a re-analysis of the deposited data

How the results depend on the processing

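No member was called higher under the main setting or any of 28 alternatives, and the median difference of the members stayed negative, from -0.13 to -0.03. Without the block 0 members were called lower under every alternative run. Over all genes the unblocked fit called 2 higher and 4 lower, against 1 and 1 with a pseudocount of 1, 0 and 0 with dim probe sets kept in (892 at an unadjusted p under 0.05), 1 and 2 without a variance trend, 1 and 3 with the filter at the upper quartile, and 3 and 2 after quantile normalization. Leaving out single arrays gave 0 to 3 higher and 0 to 5 lower. With the replicate block 10 members were lower, and 154 genes higher and 148 lower. Combined with the block, in the order members lower, all genes higher and all genes lower, the counts were 0, 21 and 17 without a variance trend, 3, 40 and 34 with dim probe sets kept in, 10, 136 and 137 after quantile normalization, and 5, 100 and 87 with all probe sets averaged. Alternatives chosen after seeing the data gave, in the same order, 10, 116 and 150 with median centring, 10, 145 and 137 with a pseudocount of 1, 10, 147 and 146 with a pseudocount of 64, 9, 122 and 141 with the stricter filter, and 10, 157 and 152 with a robust fit. With the block they were 6, 86 and 78 without replicate number 1 of both arms, 10, 195 and 159 without number 2, and 11, 179 and 215 without number 3. Of the 18 members that the naming rule picks, 15 kept a negative difference under each setting in which they were tested, and Cap1, Actb and Actg1 took both signs. The causes of the losses were not tested. Dim members such as Lpp, Evl and Myo1e lie near the filter, where a signal says least.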
